A study of Mus musculus with 2 samples.

Results

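The mouse genome holds 3 related clusters in which a let-7 gene lies beside a gene of the miR-99 and miR-100 group and a gene of the miR-125 group. The 6 genes described here, Mir99a, Mir99b, Mir100, Mir125a, Mir125b-1 and Mir125b-2, are the members of these clusters that are not let-7 genes. They were chosen by symbol among the 2202 miRNA genes counted in each library, and all 6 were found. MicroRNAs (miRNAs) were sequenced from small RNA of under 30 nt of whole adrenal glands of male B6CASTF1/J mice aged 2 months, with no treatment given in the labels. These mice are first-generation hybrids of the C57BL/6J and CAST/EiJ strains. The series is 1 group of 2 libraries, from animals numbered 3 (replicate 1) and 4 (replicate 2), so it allows a description of levels and of how far these libraries differed.

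MicroRNAs are cut from hairpin transcripts, and each hairpin can give a product from its 5′ arm (5p) and from its 3′ arm (3p). Bases 2 to 8 of the product, the seed, do most of the pairing with target messenger RNAs. The miR-125 genes are the mammalian counterparts of lin-4, which with let-7 controls developmental timing in nematodes, and their neighbourhood with let-7 is old in animals. The miR-99 and miR-100 products are known as repressors of the growth kinase MTOR and of the IGF1 receptor, also in adrenocortical tumour cells. The product miR-125a is known to repress the scavenger receptor SR-BI, which takes up lipoprotein cholesterol for steroid synthesis in adrenal and ovarian cells.

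The mature 5p sequences show which members differ in sequence. They come from RefSeq (build GRCm38.p6), which had mature sequences for 6 of 6 members, and the capitals mark the seed.
Mir99a, miR-99a-5p: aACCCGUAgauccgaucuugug
Mir100, miR-100-5p: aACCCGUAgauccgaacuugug
Mir99b, miR-99b-5p: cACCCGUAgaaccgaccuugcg
Mir125a, miR-125a-5p: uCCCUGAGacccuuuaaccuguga
Mir125b-1 and Mir125b-2, miR-125b-5p: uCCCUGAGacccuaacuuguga
Mir351, miR-351-5p: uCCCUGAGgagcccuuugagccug

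The members thus fall into a pair of seed groups. Mir99a, Mir99b and Mir100 share the seed ACCCGUA, which no other gene of the RefSeq table had. The products of Mir99a and Mir100 differ by 1 base of 22, U16A, with positions counted from 1 at the 5′ end and the base of miR-99a given first. The product of Mir99b differs from that of Mir99a by 4 bases, A1C, U11A, U16C and U21C. Mir125a, Mir125b-1 and Mir125b-2 share the seed CCCUGAG with Mir351, a gene on the X chromosome, and with Mir6367 and Mir6394. Mir125a and the Mir125b genes share their first 13 bases, and Mir351 shares its first 8 with them. The 3p products of Mir99a and Mir99b also share a seed, AAGCUCG.

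The miR-125b-5p sequence is present unchanged in both Mir125b hairpins, which share a run of 24 bases without a difference, and this bears on every count of these genes. Reads that aligned to several places of the genome were not counted at genes in these files. They made up 26.2% of all reads in replicate 1 and 28.8% in replicate 2. A read that lies within the shared 24 bases cannot be placed at either Mir125b gene, whereas their 3p products each occur in 1 hairpin. The counts of the Mir125b genes therefore leave out reads of their 5p product, and how many cannot be told from the files. For the other members, the longest run shared with any other miRNA hairpin was 16 bases for Mir99a and Mir100, 14 for Mir125a and 11 for Mir99b.

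The clusters differed in compactness (mm10 coordinates, GENCODE M21 annotation, all on the plus strand). On chromosome 16, Mir99a (chr16:77598936-77599000), Mirlet7c-1 and Mir125b-2 (chr16:77646273-77646343) lay in introns of the long non-coding host Mir99ahg, spread over 47408 bases. On chromosome 9, Mir100 (chr9:41531425-41531504), Mirlet7a-2 and Mir125b-1 (chr9:41581926-41582002) spanned 50578 bases in introns of the non-coding genes 3110039I08Rik and Gm49317. Mir125b-1 also lay whole inside the small sense-intronic transcript Gm28119, and Mir100 lay opposite an exon of the lincRNA Gm48742. Mir125b-2 overlapped an exon of the unconfirmed transcript C130023A14Rik by 4 bases. On chromosome 17, Mir99b (chr17:17830188-17830257), Mirlet7e and Mir125a (chr17:17830812-17830879) spanned only 692 bases inside Spaca6, a gene known from sperm. Mir99b and Mirlet7e lay in an intron, and 47 of the 68 bases of Mir125a overlapped an exon of a non-coding Spaca6 transcript. The hairpins had GC contents from 47.5% (Mir100) to 67.1% (Mir99b).

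**Figure D1:**
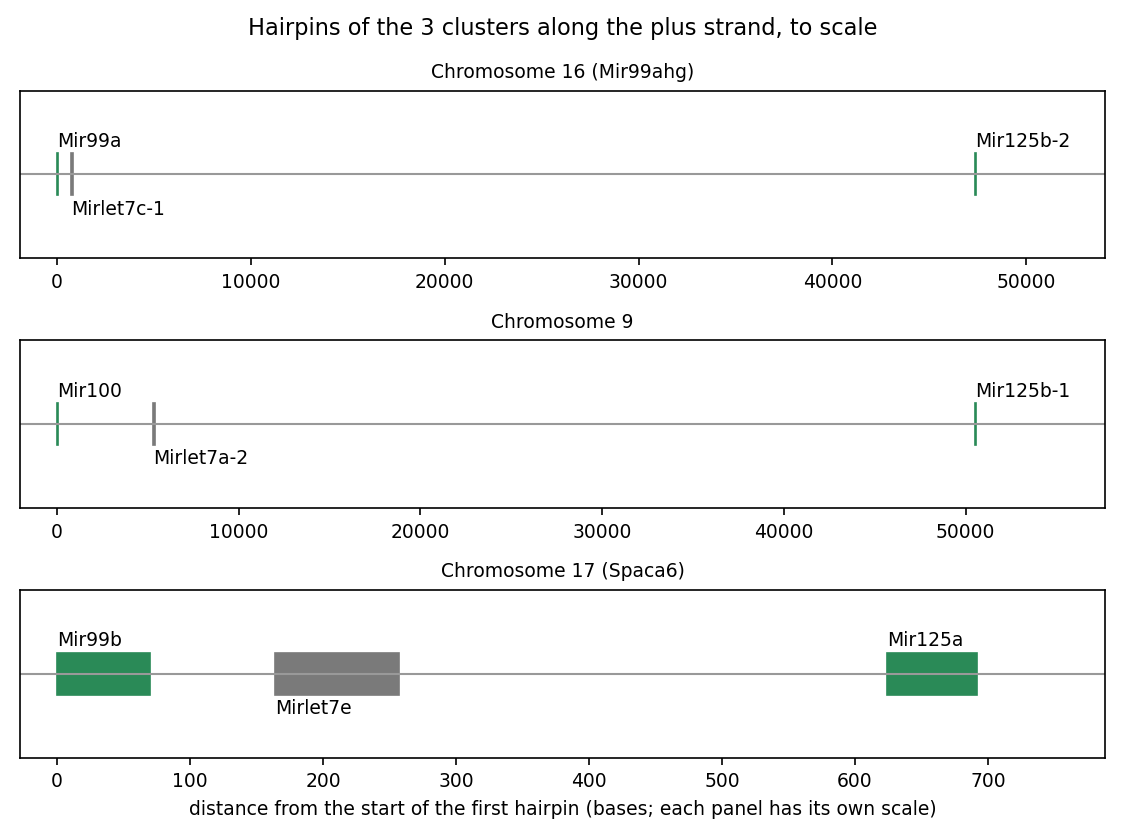
Hairpins of the 3 clusters, drawn to scale by distance in bases from the start of the first hairpin, with members in green and let-7 genes in grey; each panel has its own scale. The genes of chromosome 17 lie within 692 bases, and those of chromosomes 16 and 9 span 47408 and 50578 bases.

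Library depth was 5752428 counts at miRNA genes in replicate 1 and 3333149 in replicate 2, so that a count of 0 allowed up to 0.522 and 0.900 CPM (the share of counts at miRNA genes, scaled to 1e6). A detection level of 2 CPM in both libraries was reached by 372 genes, among them all 6 members. Levels are CPM and were not divided by gene length, since a read of a mature miRNA covers the whole product. Genes known from several cell types, not all of them of the gland, were used to set the libraries side by side. Red blood cell genes (3 of 3 detected) summed to 22813 CPM for replicate 1 and 901 CPM for replicate 2, the 4 neuroendocrine genes to 72802 and 51447 CPM, the 9 striated muscle genes (3 detected, Mir1a-1 and Mir133a-2 at 0) to 719 and 454 CPM, and the hepatocyte gene Mir122 to 690 and 1331 CPM. The 4 white blood cell genes summed to 1434 and 1777 CPM, the 4 kidney genes to 96.7 and 139 CPM, the 3 genes linked to steroid-producing tissue to 1461 and 1550 CPM, endothelial Mir126a to 69154 and 65133 CPM, and 2 smooth muscle genes to 32759 and 33318 CPM. Mir375 made up most of the neuroendocrine sum, with 68780 and 46236 CPM, and the rest of that sum was lower in replicate 1. Within the muscle list, Mir499 had 423 and 23.1 CPM and Mir206 went the other way, with 81.7 and 389 CPM. Of the genes linked to steroid-producing tissue, Mir132 had 1416 and 1449 CPM, Mir212 36.7 and 87.6 CPM, and Mir202 8.69 and 13.2 CPM. The part of such cells in the differences between the libraries was not tested. In whole tissue, a change in the number of cells of a type and a change in RNA per cell cannot be told apart.

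Together the 6 genes held 2.73% ± 0.480 of the miRNA counts (mean ± SD, n = 2). The share was 2.39% for replicate 1 (95% interval 2.38 to 2.40, exact Clopper-Pearson) and 3.07% for replicate 2 (3.05 to 3.09). These bounds cover counting error only, and reads that carry no molecular identifier may be copies of one molecule. The miR-99 and miR-100 genes made up 81.3% of this sum in replicate 1 and 69.8% in replicate 2, and the miR-125 genes 18.7% and 30.2%. The miR-99 and miR-100 genes thus had more counts than the miR-125 genes in both libraries. The counts are per gene, with both arms together, and leave out the 5p reads shared by the Mir125b genes. By cluster, the members on chromosomes 16 and 17 held nearly equal sums, at 10801 and 10794 CPM for replicate 1 and 14311 and 13900 CPM for replicate 2. The members on chromosome 9 held 2282 and 2460 CPM.

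Mir99a had the highest counts of the members. In replicate 1 it had 10693 CPM (61512 counts) and in replicate 2 it had 14136 CPM (47119 counts), a mean of 12415 ± 2435 CPM. It held rank 21 of all miRNA genes in replicate 1 and rank 17 in replicate 2. No other member reached its level in either library, by reads that could be placed at a gene.

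Mir125a and Mir99b, which lie 554 bases apart, came next, and their order turned between the libraries. In replicate 1 Mir99b had 6675 CPM (38395 counts) and in replicate 2 it had 5061 CPM (16870 counts), a mean of 5868 ± 1141 CPM. For Mir125a the values were 4119 CPM (23696 counts) and 8839 CPM (29462 counts), a mean of 6479 ± 3337 CPM. Mir99b was therefore 1.62-fold above Mir125a in replicate 1, and Mir125a 1.75-fold above Mir99b in replicate 2. The means of these neighbours did not differ beyond the spread of the libraries. The SD of Mir125a was 51.5% of its mean, the largest of the members, and its level without replicate 2 is 4119 CPM.

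Mir100 was lower and more even. Its values were 2042 CPM (11747 counts) for replicate 1 and 2196 CPM (7320 counts) for replicate 2, a mean of 2119 ± 109 CPM. Its product differs from that of Mir99a by a single base, and Mir99a exceeded it 5.24-fold in replicate 1 and 6.44-fold in replicate 2. The ranges of Mir99a, of Mir99b with Mir125a, and of Mir100 did not overlap.

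The Mir125b genes had the lowest counts. Mir125b-1 stood at 240 CPM (1381 counts) for replicate 1 and 264 CPM (880 counts) for replicate 2, a mean of 252 ± 16.9 CPM. Mir125b-2 had 107 CPM (618 counts) and 174 CPM (581 counts), a mean of 141 ± 47.3 CPM. Mir125b-1 was above Mir125b-2 in both libraries, 2.23-fold and 1.51-fold. Mir125a exceeded Mir125b-1 17.2-fold in replicate 1 and 33.5-fold in replicate 2. Because of the shared 5p product, these folds hold for reads that could be placed and not for the miR-125b product as a whole.

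**Figure D2:**
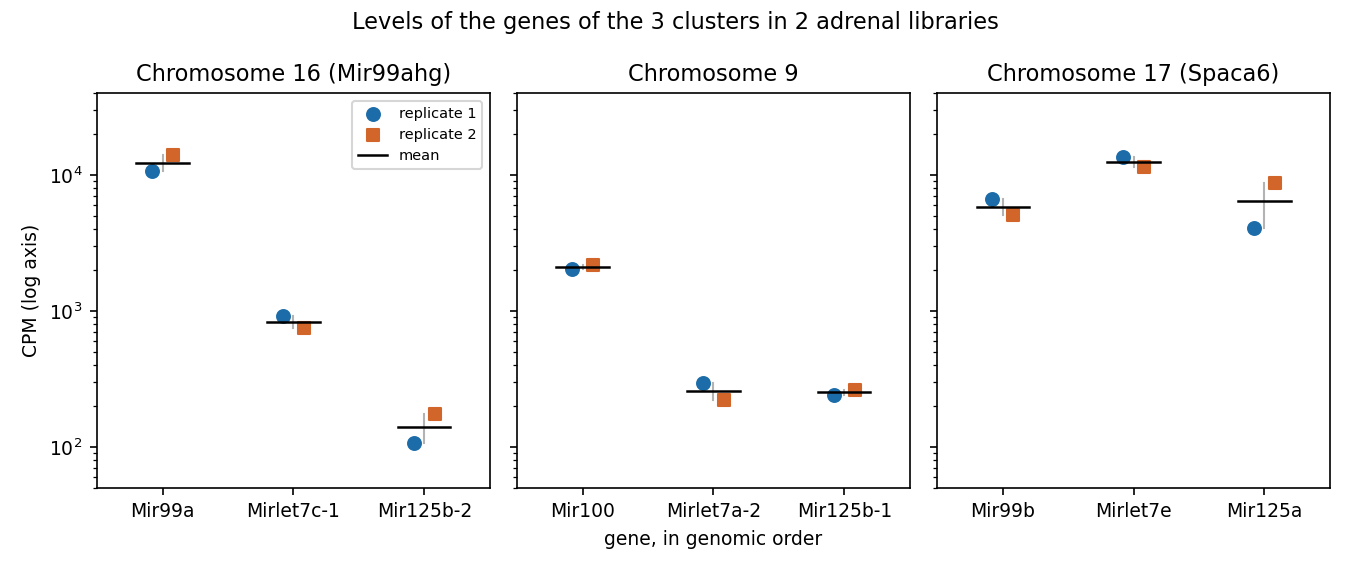
CPM on a log axis of each gene of the 3 clusters in genomic order, with a circle for replicate 1, a square for replicate 2 and a line at the mean (n = 2). Mir125a lies below Mir99b in replicate 1 (4119 against 6675 CPM) and above it in replicate 2 (8839 against 5061 CPM), while Mir125b-1 and Mir125b-2 stay at 264 CPM or less.

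Across the 9 genes of the clusters, low counts went with sequence shared between hairpins. Mir99a, Mir99b, Mir100, Mir125a and Mirlet7e, whose longest shared runs were 11 to 17 bases, had mean levels from 2119 to 12565 CPM. Mirlet7c-1, Mirlet7a-2, Mir125b-1 and Mir125b-2, with runs of 23 or 24 bases, had mean levels from 141 to 838 CPM. The groups did not overlap. This is a description of 9 genes that share 2 libraries, and the part of uncounted reads in it was not tested.

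Ratios between genes of a cluster within a library need no scaling between libraries, and they varied by cluster. On chromosome 9, Mir100 exceeded Mir125b-1 8.50-fold in replicate 1 and 8.31-fold in replicate 2. The log2 ratios, 3.09 and 3.06, differed by 0.03 with a counting SE of 0.066. On chromosome 16, Mir99a exceeded Mir125b-2 99.5-fold and 81.0-fold, and the log2 ratios differed by 0.30 (SE 0.084). These pairs lie 50421 and 47272 bases apart. Ratios with the let-7 gene of a wide cluster shifted more. That of Mirlet7c-1 over Mir125b-2 differed by 1.00 (SE 0.090) and that of Mirlet7c-1 over Mir99a by 0.71 (SE 0.036). On chromosome 9 the shifts were 0.56 (SE 0.089) for Mirlet7a-2 over Mir125b-1 and 0.53 (SE 0.067) for Mirlet7a-2 over Mir100. The counts of Mir125b-1 and Mir125b-2 leave out reads of the product that these genes share. Mirlet7c-1 and Mirlet7a-2 share runs of 23 bases with other let-7 hairpins. Ratios with any of these genes, and their shifts, therefore hold only for reads that could be placed at a gene. The effect of the uncounted reads on them was not tested.

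In the compact cluster of chromosome 17 the ratio of the miR-99 gene to the miR-125 gene moved most of the 3 clusters. For the other clusters this holds only for reads that could be placed at a Mir125b gene. The log2 ratio of Mir99b over Mir125a was 0.70 in replicate 1 and -0.80 in replicate 2, a difference of 1.50 with a counting SE of 0.018. The ratio of the neighbours Mir99b and Mirlet7e moved less. Mirlet7e exceeded Mir99b 2.05-fold and 2.26-fold, and the log2 ratios differed by -0.14 (SE 0.016). Mirlet7e exceeded Mir125a 3.32-fold in replicate 1 and 1.29-fold in replicate 2, a difference of 1.36 (SE 0.015). Both ratios with Mir125a thus shifted by more than the ratio of Mirlet7e to Mir99b, which also shifted beyond its counting SE. The SE covers counting error only, and with 1 library on each side the difference has no replicate check.

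The let-7 genes of the other clusters were low beside their miR-99 and miR-100 neighbours. Mirlet7c-1 stood at 926 CPM for replicate 1 and 750 CPM for replicate 2, and Mir99a exceeded it 11.6-fold and 18.9-fold. Mirlet7a-2 had 296 and 221 CPM, and Mir100 exceeded it 6.89-fold and 9.94-fold. Mirlet7e, with 13697 and 11434 CPM, was above both of its neighbours in both libraries. The order of Mirlet7a-2 and Mir125b-1 turned, with a log2 ratio of 0.30 in replicate 1 and -0.26 in replicate 2. The let-7c-5p sequence is present in 2 hairpins, and Mirlet7a-2 shares 23 bases with Mirlet7a-1, so these folds carry the same limit as those of the Mir125b genes.

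**Figure D3:**
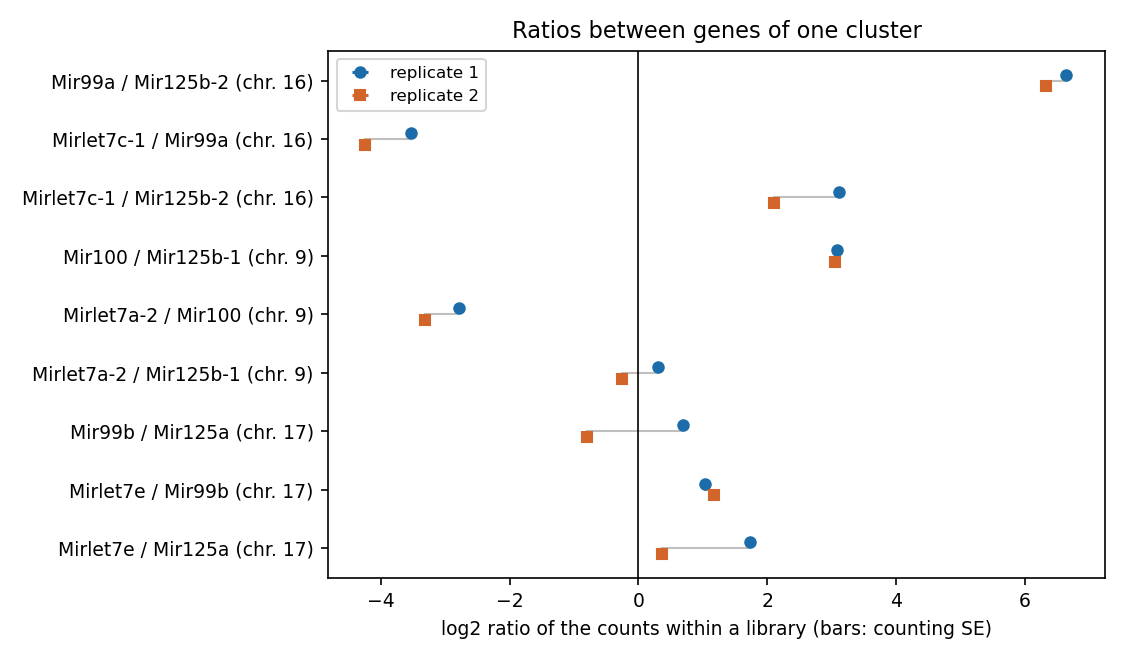
Log2 ratios of counts between genes of one cluster within each library, with a circle for replicate 1, a square for replicate 2 and bars for the counting SE, mostly smaller than the symbols. Mir100 over Mir125b-1 stayed at 3.09 and 3.06, and Mir99b over Mir125a crossed 0, from 0.70 to -0.80. Ratios with a Mir125b gene, Mirlet7c-1 or Mirlet7a-2 hold only for reads that could be placed at that gene.

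The libraries were then compared per gene after TMM scaling, by an exact binomial test with Benjamini-Hochberg adjustment over the 389 miRNA genes with a mean of 10 or more counts. The test compares these libraries by their counting error and not conditions, and it called 59.6% of all tested genes. Of the 6 members 5 were called, a share that is read against this background. The background takes in genes with means down to 10 counts, and the test finds smaller ratios at higher counts. Ratios also scatter more at low counts, so the shares over all genes are not matched to the members in depth. Higher in replicate 1 were 2 members (30.8% of all genes) and lower were 3 (28.8%). The median log2 ratio of replicate 1 over replicate 2 was -0.07 for the members and 0.01 for all tested genes, and the median size of the log2 ratio was 0.35 and 0.40. The libraries lay within 2-fold of each other for all 6 members and for 85.6% of all tested genes; by total counts Mir125a, at a log2 ratio of -1.10, lay outside. By edgeR's exact test at a common dispersion, which was estimated from the same 2 libraries (biological coefficient of variation 0.361), 1.03% of the genes and 0 members were called. No member had an unadjusted p under 0.05 there, 0 of 6, and the smallest was 0.232, for Mir125a. The dispersion takes in the differences under test, so these results do not show that the libraries were alike.

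Within the miR-99 and miR-100 genes the ratios went both ways. Mir99b was higher in replicate 1, 1.51-fold with a log2 ratio of 0.60 (counting SE 0.013). Mir99a was lower, with a log2 ratio of -0.20 (SE 0.009, adjusted p = 1.39e-116 by the exact binomial test). Mir100 had a log2 ratio of 0.09 (SE 0.021, adjusted p = 3.03e-05 by the exact binomial test). By total counts, without TMM, Mir100 stood at -0.10, so its direction depends on the scaling. TMM raised every log2 ratio by 0.20 against total counts.

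Among the 3 miR-125 genes the test called 2 as lower in replicate 1 and 0 as higher, beside 28.8% and 30.8% of all tested genes. Mir125a was 1.87-fold higher in replicate 2, a log2 ratio of -0.90 (SE 0.013), and 81.7% of all tested genes had a log2 ratio of smaller size in either direction. Its adjusted p in the exact binomial test, like that of Mir99b, was too small for the calculation to hold. Mir125b-2 had a log2 ratio of -0.50 (SE 0.083, adjusted p = 6.9e-09 by the exact binomial test). Mir125b-1 did not pass, with a log2 ratio of 0.06 (SE 0.062, adjusted p = 0.443 by the exact binomial test). The counts of the Mir125b genes leave out reads of their shared 5p product, so their ratios hold only for reads that could be placed. By total counts, where the test called 65.6% of all genes, 6 of 6 members were called, 1 higher in replicate 1 (21.9% of all genes) and 5 lower (43.7%). Mir99b was the member that stayed higher.

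The 3 let-7 genes of the clusters were all called higher in replicate 1, with log2 ratios of 0.62 for Mirlet7a-2, 0.50 for Mirlet7c-1 and 0.46 for Mirlet7e. The share of all tested genes called so was 30.8%. The ratios of Mirlet7a-2 and Mirlet7c-1, which share 23 bases with other hairpins, hold only for reads that could be placed at a gene. By total counts all 3 were called higher too, beside 21.9% of all genes, and edgeR's exact test at the common dispersion called 0 of them, with 0 at an unadjusted p under 0.05. Among their cluster mates, Mir99b alone had a ratio of that size in the same direction. The other members of the clusters lay between -0.90 and 0.09.

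**Figure D4:**
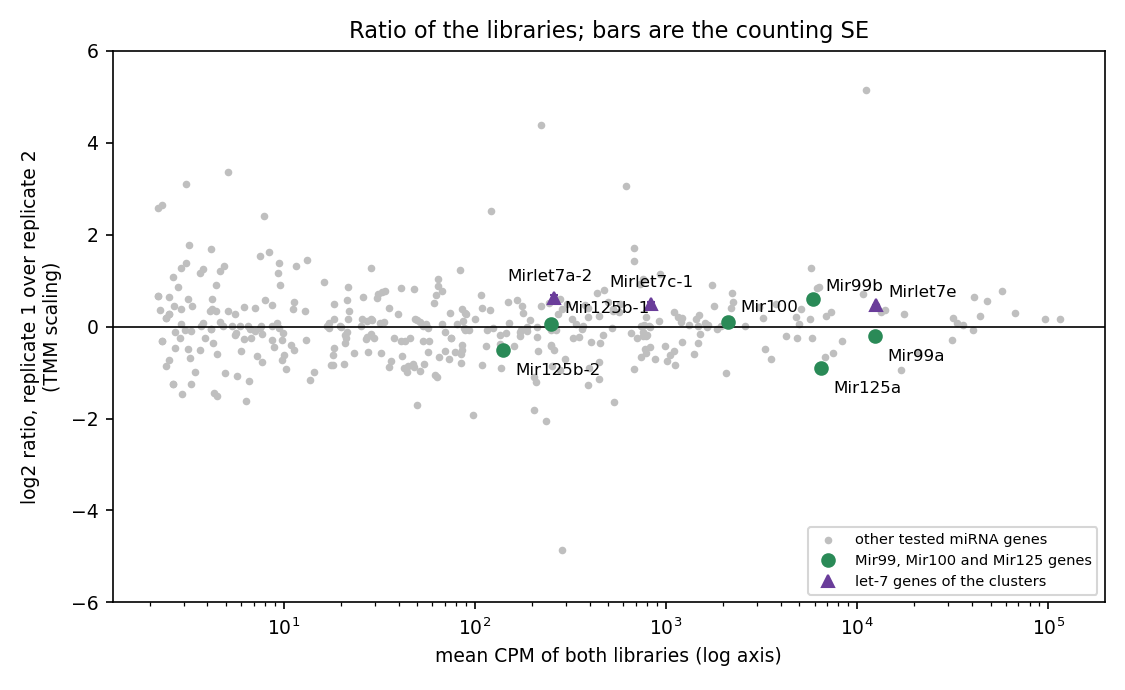
Log2 ratio of replicate 1 over replicate 2 after TMM scaling against the mean CPM on a log axis, for 389 tested miRNA genes (grey), the 6 members (circles) and the let-7 genes of the clusters (triangles), with bars for the counting SE. The members lie between -0.90 (Mir125a) and 0.60 (Mir99b), inside the cloud of other genes.

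The genes were also summed by the seed of their products. The files do not separate the arms, so these are counts of whole genes and not of reads with that seed, and the Mir125b counts leave out reads of the 5p product that has it. Genes with a CCCUGAG product took 0.599% of the miRNA counts for replicate 1 and 1.10% for replicate 2. Mir125a supplied 68.8% and 80.0% of these. Mir351, best known from a growth-linked cluster with Mir322 and Mir503, supplied 25.4% and 16%, with 1523 and 1770 CPM and a log2 ratio of -0.02 (counting SE 0.024). The Mir125b genes supplied 5.80% in replicate 1 and 3.97% in replicate 2. Mir6367 and Mir6394 had 0 counts in both libraries. Genes with an ACCCGUA product held 1.94% and 2.14%, of which Mir99a supplied 55.1% and 66.1%, Mir99b 34.4% and 23.7%, and Mir100 10.5% and 10.3%.

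For each member, the genes closest in level over the 2 libraries were found by the Euclidean distance of log2(CPM + 1). The closest gene to Mir99a was Mir322, at 0.04, with 10983 and 14286 CPM. Closest to Mir99b was Mir379 (0.18), to Mir100 Mir328 (0.07), to Mir125a Mir30e (0.23), to Mir125b-1 Mir467d (0.07) and to Mir125b-2 Mir700 (0.10). The second closest were Mir652, Mir30d, Mir93, Mir29a, Mir667 and Mir130b, in the same order. With 2 libraries this likeness says little more than that the levels were near each other.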

How the data were processed

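The authors deposited counts for mm10 with GENCODE M21, per the files that describe each library, with 3 columns of whole numbers. The values show the columns to be unstranded, gene-strand and opposite-strand reads. Which aligner, counter and adapter trimming were used is not given in the sources used here. The gene-strand column was used; the members had 0 reads on the opposite strand. All 2202 identifiers matched GENCODE M21. The 4 rows that name no gene were kept out of totals and tests; they held 66.2% of reads in replicate 1 and 69.0% in replicate 2.

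CPM are counts over the total at miRNA genes, times 1e6. Log2 ratios had 0.5 counts added. The exact binomial test was two-sided, with a threshold of 0.05. It was checked on simulated libraries that held counting error only, so the check does not cover other spread between libraries. A quasi-likelihood test needs groups, and the series has 1. The labels number the animals separately under a shared donor entry, so differences between the libraries may be technical as well as biological. Named were the members, the let-7, Mir10 and seed-sharing genes, and the 2 nearest genes of each member. The members, lists and tests were chosen with earlier results of these data known. Identical copies of mature sequences were searched among the hairpins of the 2202 genes. Tools were Python 3.11.15, SciPy 1.17.1, R 4.3.3, edgeR 4.0.16, DESeq2 1.42.0 (size factors) and matplotlib 3.10.9. A sequence that is withheld is not reported here.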

Additional observations from a re-analysis of the deposited data

How the results depend on the processing

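The number of members called different between the libraries was 5 with TMM or DESeq2 size factors and 6 by total counts. It was also 5 without a filter on low counts, with a mean of 100 or more counts, and with unstranded counts. The filters could not remove a member, and for 6 of 6 members the unstranded count equalled the gene-strand count. These settings thus changed only the scaling or the adjustment. With edgeR's exact test at a common dispersion the number called was 0 (0 members had an unadjusted p under 0.05). That dispersion takes in the differences under test, so this number does not show that the libraries were alike. By total counts the log2 ratio turned to -0.10 for Mir100 and to -0.14 for Mir125b-1. The summed share of the members depends on what it is divided by. It was 1.47% with reads aligned to several places in the denominator, 6.45% without the 10 most abundant genes and 3.23% with unstranded counts, and 2.39% to 3.07% when 1 library was left out. Leaving out 1 library gave -0.80 to 0.70 for the log2 ratio of Mir99b over Mir125a and -0.26 to 0.30 for Mirlet7a-2 over Mir125b-1. The ratios with Mirlet7e could not be computed from unstranded counts, where Mirlet7e, which overlaps Gm25927 on the other strand, is listed at 0. Adding 1 count in place of 0.5 changed no direction of a member. The test takes the counts without this addition, so its calls could not change. Depth limits Mir125b-2 most, with 618 and 581 counts.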

Other observations

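The miR-10 genes, which lie in the Hox clusters, are the nearest relatives of the miR-99 and miR-100 group by sequence. The 5p products of Mir10a and Mir100 share a run of 11 bases that starts at base 7 of miR-10a-5p and at base 6 of miR-100-5p, so that their seeds differ. The seed of miR-10a-5p is shown by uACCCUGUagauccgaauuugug. Mir10a stood at 32113 CPM for replicate 1 and 34961 CPM for replicate 2, and Mir10b 14898 and 13295 CPM. The pair summed to 4.70% and 4.83% of the counts, above the 2.39% and 3.07% of the 6 members. Their log2 ratios of replicate 1 over replicate 2 were 0.08 and 0.36, and by total counts -0.12 and 0.16. The SD of Mir10a was 6.0% of its mean and that of Mir10b 8.04%, near the 5.14% of Mir100 and the 6.72% of Mir125b-1.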
